A study of Mus musculus with 10 samples.

Results

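The stefin A genes Stfa1, Stfa2, Stfa3, Cstdc4, Cstdc5 and Csta2 were described across 10 microarrays of mouse EML-C1 cells, a blood progenitor cell line that can give rise to both red cells and white cells of the myeloid kind. These 6 genes, of 20656 genes that the array probes name, were chosen by symbol because Stfa1, Cstdc5 and Csta2 were among the genes that differ most between cells given IL-3/GM-CSF and cells given EPO. Their values in that contrast are therefore a description, and no test of it was made. Each of the 6 genes was read by 1 probe.

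Stefins are small intracellular proteins of the cystatin family that bind tightly and reversibly in the active-site cleft of papain-like cysteine proteases, the cathepsins, and so block them. Humans have a lone stefin A gene, CSTA, while in mice the locus has expanded into a row of closely related copies next to each other. In mice, transcripts of these copies are known from bone marrow and neutrophils, and stefin A is also a protein of the epidermis.

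The study followed EML-C1 cells that were driven toward the erythroid or the myeloid fate, to ask how cells behave while they choose between them. Cells received 10 ng/ml IL-3 with 10 µM all-trans retinoic acid (ATRA), and 10 ng/ml GM-CSF only after day 3, so the day 3 cells labelled IL-3/GM-CSF had not yet met GM-CSF. A combined group received these factors together with 10 ng/ml erythropoietin (EPO), an EPO group received 10 ng/ml EPO alone, and untreated cells were taken at day 0. Day 3 cells were sorted into Sca1-low and Sca1-high cells, Sca1 being a surface protein of progenitors, and the labels name no fraction at day 6. All groups share the same cell line and a serum-containing medium with conditioned medium, which supplies stem cell factor. This gives 10 conditions with 1 array each. The design text speaks of duplicates, and second samples were not analysed here. With no replicate, a difference between 2 arrays has no replicate check.

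Spot intensities were put on a log2 scale relative to the 75th percentile of their array, called the level here. That percentile lay between 309 and 736 intensity units, and having 1 array per condition limits the precision. Between 11186 and 13517 genes per array were well above background, a per-spot call of the scanner software, and no spot other than controls was saturated. The lowest level of a probe well above background, called the array limit, lay between -5.36 and -3.47. The median SD of 399 probes printed repeatedly on each array lay between 0.0886 and 0.135 on the log2 scale, which measures error within an array only. In untreated cells the progenitor genes Kit and Gata2, a receptor and a transcription factor, were at levels of 5.85 and 5.01. Ly6a, which encodes Sca1, had levels of -3.43 in Sca1-low and 2.64 in Sca1-high cells with IL-3/GM-CSF, -2.80 and 1.89 with the combined treatment, and -4.25 and 4.76 with EPO, so the sorted fractions matched their labels. The arrays were on 3 slides. Untreated, EPO day 6 and combined day 6 shared a slide, the day 3 arrays of EPO and IL-3/GM-CSF shared another, and the combined day 3 arrays were with IL-3/GM-CSF day 6.

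The genes lie on chromosome 16 between positions 36184212 and 36455392 of GRCm38.p6, a stretch of 271 kb. Cstdc4, Csta2 and Stfa1 are on the plus strand, and Cstdc5, Stfa2 and Stfa3 follow on the minus strand. The RefSeq promoter windows, 250 bases before to 50 after each start, were found for all 6 genes. They are shown because 5 of the 6 share letters around their start that Csta2 does not have. The 2 longest runs common to those 5 are in capitals in the sequences below, written 5′ to 3′, for a pair with the most alike promoters of the 6 (Stfa1 and Cstdc5), for Stfa2 and for Csta2, which has neither run.
Stfa1 (chr16:36276898-36277197, plus strand): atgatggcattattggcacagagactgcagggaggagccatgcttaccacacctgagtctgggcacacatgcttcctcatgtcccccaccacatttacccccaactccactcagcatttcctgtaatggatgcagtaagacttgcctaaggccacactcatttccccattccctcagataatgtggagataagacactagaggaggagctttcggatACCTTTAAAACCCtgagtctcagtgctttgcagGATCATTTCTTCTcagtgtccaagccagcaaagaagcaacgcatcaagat
Cstdc5 (chr16:36367521-36367820, minus strand): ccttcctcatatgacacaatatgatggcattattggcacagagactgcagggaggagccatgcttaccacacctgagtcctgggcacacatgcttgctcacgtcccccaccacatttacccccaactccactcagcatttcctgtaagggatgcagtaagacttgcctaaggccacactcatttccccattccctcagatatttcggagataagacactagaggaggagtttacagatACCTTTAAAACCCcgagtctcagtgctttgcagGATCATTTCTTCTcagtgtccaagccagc
Stfa2 (chr16:36408314-36408613, minus strand): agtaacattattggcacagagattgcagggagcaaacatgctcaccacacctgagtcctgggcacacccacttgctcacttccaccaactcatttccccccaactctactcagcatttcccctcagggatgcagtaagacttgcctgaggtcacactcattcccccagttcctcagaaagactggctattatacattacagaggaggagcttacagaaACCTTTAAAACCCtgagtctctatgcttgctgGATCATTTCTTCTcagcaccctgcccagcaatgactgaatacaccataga
Csta2 (chr16:36221312-36221611, plus strand): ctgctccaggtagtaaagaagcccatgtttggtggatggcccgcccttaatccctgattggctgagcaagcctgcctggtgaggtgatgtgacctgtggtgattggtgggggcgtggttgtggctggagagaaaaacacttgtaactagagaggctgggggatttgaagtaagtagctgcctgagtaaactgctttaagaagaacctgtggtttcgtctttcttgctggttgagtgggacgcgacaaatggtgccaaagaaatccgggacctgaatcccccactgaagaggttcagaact

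The first run, ACCTTTAAAACCC, began 33 bases before the start of Stfa1, 32 before Cstdc4 and Stfa2, 34 before Stfa3 and 12 before Cstdc5. Of 32851 promoter windows, read on both strands, 9 held it. The second, GATCATTTCTTCT, began at the first transcribed base of Stfa1, Cstdc4 and Stfa2, 2 bases before the start of Stfa3 and at transcribed base 22 of Cstdc5, and 10 windows held it. Both were also in the promoters of the neighbouring Stfa2l1 and Csta3, and neither was in that of Csta1. Aligned end to end, Stfa1 and Cstdc5 shared 83.8% of aligned positions, Stfa2 and Stfa3 80.9%, and Stfa2 and the neighbour Stfa2l1 90.5%. Csta2 shared 43.0% to 46.6% with the other 5 genes. The letters TTNNGNAA, a loose form of the C/EBP site, occurred in the windows of Cstdc4, Stfa1, Cstdc5 and Stfa2, and in 40.7% of all windows. GAGGAAG, a core of the PU.1 site, was in those of Cstdc4, Stfa1 and Cstdc5 and in 13.6% of all. The letters AGATAA, read by GATA factors, were in those of Stfa1, Cstdc5 and Stfa3 and in 11.2% of all. TGANTCA, an AP-1 site, was in that of Stfa3 and in 7.81% of all, and TATAAA was in none of the 6 and in 13.6% of all. These matches describe the letters of the windows only.

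All 6 stefin A genes had their highest levels at day 6 in cells that had received IL-3/GM-CSF, alone or in combination, and at day 6 none was well above background with EPO alone. Stfa1 read 1130.0 in Sca1-low cells, 71329 in Sca1-high cells and 257462 at day 6 with IL-3/GM-CSF, in intensity units. Its probe read 156, 24237 and 251910.2 in the same order with the combined treatment. With EPO it read 12.4, 29.2 and 9.04, against 5.81 in untreated cells, and only the Sca1-high value of these was well above background. The arrays with IL-3/GM-CSF or both sets of factors did not overlap with the EPO and untreated arrays for Stfa1. Stfa1 was chosen for its difference between IL-3/GM-CSF and EPO, so nothing is read from this. The share of all genes that separate these arrays likewise was not counted.

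Cstdc5 followed the same order of arrays. It read 1628, 75811 and 458918 in Sca1-low cells, Sca1-high cells and at day 6 with IL-3/GM-CSF. With the combined treatment it read 319, 26028 and 327783. With EPO it read 21.4, 41.5 and 13.8, against 7.53 in untreated cells. Only the Sca1-high EPO array was well above background among these last 4. Its highest value lay under the saturation limit, which was at least 778296 on each array.

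Csta2, whose probe is printed 10 times on each array, gives the error within an array. Its level was -1.19 ± 0.12 in Sca1-low cells, 4.68 ± 0.073 in Sca1-high cells and 8.59 ± 0.16 at day 6 with IL-3/GM-CSF (SD over the 9 or 10 spots kept, 1 array each). With the combined treatment it was -3.40 ± 0.34, 2.86 ± 0.069 and 8.0 ± 0.096. With EPO it was -4.57 ± 0.31, -5.05 ± 0.44 and -5.17 ± 0.35, and it was -5.69 ± 0.52 in untreated cells. No spot kept was well above background with EPO or in untreated cells, and every spot kept was on the other 6 arrays. A spot of the untreated array that the scanner software marked as an outlier, and that was left out, was well above background. The spread over spots was widest where the signal was near background.

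**Figure D1:**
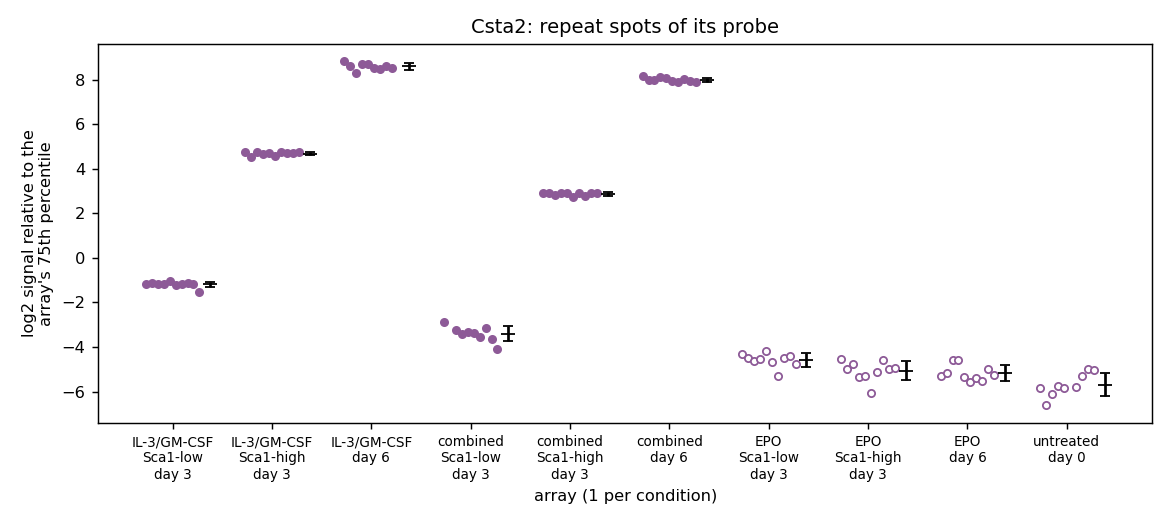
Levels of the spots kept of the repeated Csta2 probe (log2 signal relative to the 75th percentile of the array) on the 10 arrays. Filled points were well above background, open points were not, and the black mark beside each set is the mean with its SD. The 6 arrays of cells given IL-3/GM-CSF, alone or combined, have filled points only, and the EPO and untreated arrays open points only.

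Stfa2 and Stfa3 showed their widest step between Sca1-high day 3 cells and day 6. Stfa2 read 107, 2806 and 289043 in Sca1-low cells, Sca1-high cells and at day 6 with IL-3/GM-CSF, and 34.5, 1114 and 181767 with the combined treatment. It read 27.8, 45.1 and 17.4 with EPO, against 60.4 in untreated cells. Its probe was well above background on 9 arrays, all but EPO day 6, and it alone of the 6 was so in untreated cells. In Sca1-low cells its levels were -2.57 with IL-3/GM-CSF and -4.10 with the combined treatment, beside -3.47 with EPO and -3.61 in untreated cells, so for Stfa2 the Sca1-low arrays overlapped with the EPO and untreated arrays.

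Stfa3 read 194, 6499 and 291253 with IL-3/GM-CSF, and 80.8, 2715 and 207733 with the combined treatment, in Sca1-low cells, Sca1-high cells and at day 6. It read 26.6, 25.8 and 36.8 with EPO, against 18.1 in untreated cells. Only the Sca1-low value of these last 4 was well above background.

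Cstdc4 departed from the other 5 genes by its higher signal in EPO-treated cells at day 3. It read 298, 14057 and 150077 with IL-3/GM-CSF, 75.2, 5977 and 251886 with the combined treatment, and 196, 451 and 9.70 with EPO, against 6.31 in untreated cells. Both day 3 EPO arrays were well above background for Cstdc4, at levels of -0.66 and -0.45. They were so for Stfa2 as well, at lower levels of -3.47 and -3.77. For Cstdc4 the day 6 EPO array and the untreated array were not well above background. Cstdc4 was also the one gene of the 6 whose highest level was in the combined cells at day 6 (8.55, beside 7.89 with IL-3/GM-CSF).

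**Figure D2:**
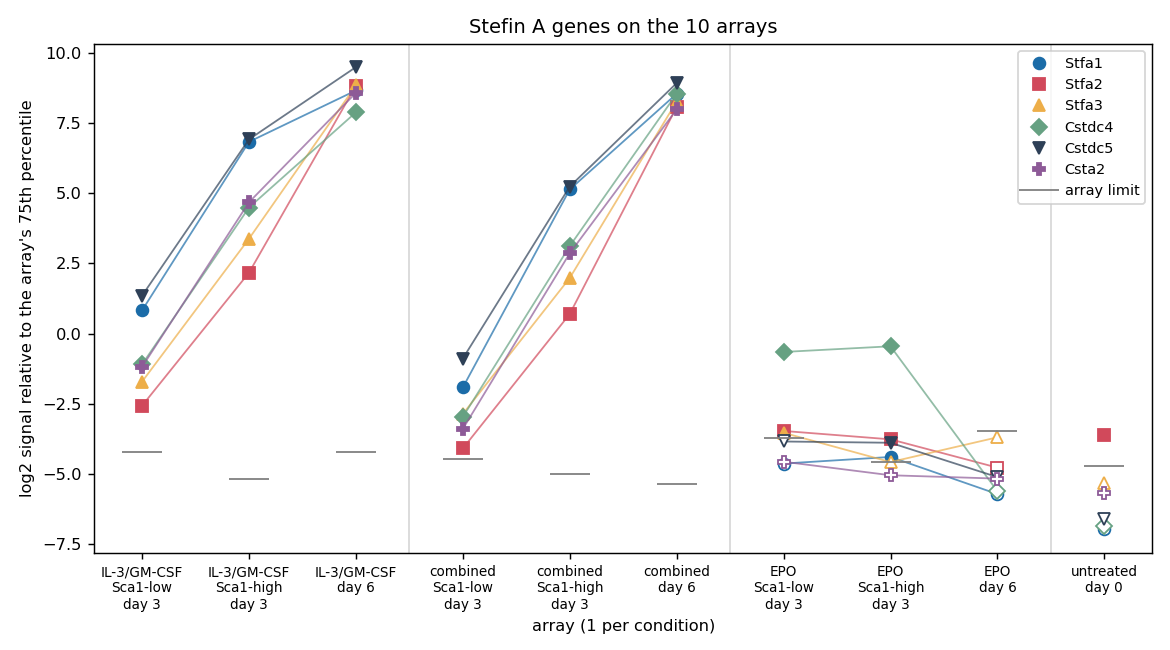
Levels of the 6 stefin A genes on the 10 arrays, as log2 signal relative to the 75th percentile of the array. Filled symbols were well above background and open symbols were not, grey dashes are the array limits, and lines join the arrays of 1 treatment. With IL-3/GM-CSF and with the combined treatment all 6 genes climb over the Sca1-low, Sca1-high and day 6 arrays to levels between 7.89 and 9.50, while with EPO they lie between -5.72 and -0.45.

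The difference between IL-3/GM-CSF and EPO cells, which chose the genes, was a lower bound at day 6, since the EPO array was not well above background for any of them. Each bound sets the bright array against the array limit or the dim probe, whichever is higher. Cstdc5 was at least 8044-fold higher with IL-3/GM-CSF than with EPO at day 6, Stfa1 at least 4513-fold and Cstdc4, with the lowest bound, at least 2631-fold. At a threshold of 2-fold, 6 of 6 genes were higher, where 14.0% of the 14272 genes tested were, and nothing is read from this count. In Sca1-high cells at day 3, 6 of 6 were higher (all genes 6.29%), with log2 differences of 11.24 for Stfa1, 10.82 for Cstdc5, 5.94 for Stfa2 and 4.95 for Cstdc4. Csta2 and Stfa3 were there at least 612-fold and 249-fold higher. In Sca1-low cells 4 of 6 were higher (all genes 8.87%). The log2 differences of the other two were 0.90 for Stfa2 and -0.44 for Cstdc4. Arrays compared at day 3 shared a slide, and those at day 6 did not.

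Cells given both sets of factors carried less stefin A transcript than cells given IL-3/GM-CSF at day 3, and at day 6 no gene differed by 2-fold. In Sca1-low cells 6 of 6 genes were at least 2-fold lower in combined than in IL-3/GM-CSF cells, where 1.94% of all genes were. The log2 differences ran from -2.75 for Stfa1 to -1.15 for Stfa3. In Sca1-high cells 6 of 6 were lower as well (all genes 4.57%), from -1.82 for Csta2 to -1.37 for Cstdc4. At day 6, 0 of 6 were lower by 2-fold (all genes 2.91%), and 0 of 6 were higher (2.48%). The day 6 differences were -0.75 for Stfa2, -0.59 for Csta2, -0.57 for Stfa3 and Cstdc5, -0.12 for Stfa1 and 0.66 for Cstdc4. These differences are between single arrays on different slides, and whether the slide contributes was not tested. The IL-3/GM-CSF arrays are also part of the contrast that chose the genes, so these counts are a description. In bulk RNA, fewer cells carrying a transcript and less transcript per cell cannot be told apart.

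Combined cells were also compared with EPO cells, which shares arrays with the comparisons above. At day 6, 6 of 6 genes were higher in combined cells (all genes 12.8%), on arrays of the same slide, by at least 2826-fold for Csta2 to at least 5416-fold for Cstdc5. In Sca1-high cells 6 of 6 were higher (7.46%), with log2 differences of 9.54 for Stfa1, 9.14 for Cstdc5, 4.47 for Stfa2 and 3.57 for Cstdc4. In Sca1-low cells Stfa1 and Cstdc5 were higher, by at least 3.52-fold and 7.19-fold, which is 2 of 6 (8.15%). Cstdc4 was lower there, by 2.32 on the log2 scale with a level of -2.97 in combined against -0.66 in EPO cells (10.4% of all genes were lower).

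Against untreated cells, stefin A transcripts were higher on every array with IL-3/GM-CSF. All these comparisons share 1 untreated array. The IL-3/GM-CSF and EPO arrays are also those of the contrast that chose the genes. With IL-3/GM-CSF, 6 of 6 genes were at least 2-fold higher in Sca1-low cells (all genes 7.46%), in Sca1-high cells (7.96%) and at day 6 (9.49%). Stfa2, measured in untreated cells, differed by 1.03 in Sca1-low cells, 5.78 in Sca1-high cells and 12.44 at day 6 on the log2 scale. With the combined treatment 5 of 6 were higher in Sca1-low cells (9.08%), all but Stfa2 with a log2 difference of -0.49, and 6 of 6 in Sca1-high cells (7.15%) and at day 6 (7.08%). With EPO, Cstdc4 and Stfa3 were higher in Sca1-low cells, which is 2 of 6 where 18.4% of all genes were higher. Their bounds were at least 16.9-fold and at least 2.29-fold. In EPO Sca1-high cells Cstdc4 alone was higher, by at least 19.4-fold (1 of 6, all genes 2.95%), and at day 6 with EPO 0 of 6 were higher (11.5%).

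The sorted fractions were compared within each treatment, on arrays that shared a slide. With IL-3/GM-CSF, 6 of 6 genes were lower in Sca1-low than in Sca1-high cells (all genes 11.4%), from -6.01 for Stfa1 to -4.74 for Stfa2 on the log2 scale. With the combined treatment 6 of 6 were lower too (10.6%), from -7.06 for Stfa1 to -4.80 for Stfa2. With EPO, Stfa2 and Cstdc4, measured in both fractions, differed by 0.30 and -0.20, and Stfa3 was at least 2.05-fold higher in Sca1-low cells (1 of 6, 12.2%). That count was 0 of 6 with normexp background correction and quantile normalization, with quantile normalization alone, and with the 75th percentile taken over detected probes.

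This contrast itself was not used to choose the genes, but its IL-3/GM-CSF and EPO arrays also belong to the contrast that chose them. The fit is therefore not independent of that choice. The Sca1 contrast recurs in 3 treatments, and it was fitted across all genes with limma on the 6 day 3 arrays, with treatment as a block. The p-values then measure the unevenness between treatments, not that between cultures. At an adjusted p under 0.05 the fit placed 569 genes above and 978 below in the Sca1-low fraction (3.99% and 6.85% of 14272), and 4400 had an unadjusted p under 0.05. It called 0 of the 6 stefin A genes. The estimates ran from -4.44 ± 1.40 (SE, limma adjusted p = 0.117) for Stfa1 to -2.97 ± 1.33 (SE, limma adjusted p = 0.211) for Stfa3, each gene being lower in Sca1-low cells in both pairs that received IL-3. Of the 6 unadjusted p-values, 5 were under 0.05 and that of Stfa3 was 0.0796 (limma). With the slide as a block 1 of 6 was under 0.05, beside 3855 of all genes tested (unadjusted limma p). In an additive model of all 10 arrays 0 of 6 were, beside 3580 of all genes (unadjusted limma p). Without the EPO pair, the treatment that the genes were chosen against, 1 residual degree of freedom remained and 6 of 6 were called, where 9.66% of all genes were lower. Nothing is read from this count. Without the IL-3/GM-CSF pair 0 of 6 were called, but 0 of all 14272 genes were higher and 0 lower, so nothing is read from that count. Without the combined pair 0 of 6 were called, where 106 of all genes were higher and 351 lower. The difference between treatments in this contrast itself was not tested.

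Day 6 cells carried more stefin A transcript than Sca1-high day 3 cells in both treatments with IL-3/GM-CSF, by amounts that differed between the genes. With IL-3/GM-CSF, 6 of 6 were at least 2-fold higher at day 6 (all genes 5.73%). The log2 difference was 1.83 for Stfa1, 2.58 for Cstdc5, 3.40 for Cstdc4, 3.90 for Csta2, 5.47 for Stfa3 and 6.67 for Stfa2. With the combined treatment 6 of 6 were higher (5.31%), by 3.41 for Stfa1, 3.69 for Cstdc5, 5.13 for Csta2, 5.43 for Cstdc4, 6.29 for Stfa3 and 7.39 for Stfa2. Stfa1 had the smallest and Stfa2 the widest step under both treatments. Against Sca1-low day 3 cells, 6 of 6 were higher at day 6 with IL-3/GM-CSF (12.6%) and with the combined treatment (12.4%), by log2 differences between 7.84 and 12.18. With EPO, Cstdc4 was at least 8.09-fold lower at day 6 than in Sca1-high cells (1 of 6, 11.5%) and at least 7.03-fold lower than in Sca1-low cells (1 of 6, 5.6%). Day 6 and day 3 arrays lay on different slides in each treatment, and the IL-3/GM-CSF and EPO arrays are those of the contrast that chose the genes.

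**Figure D3:**
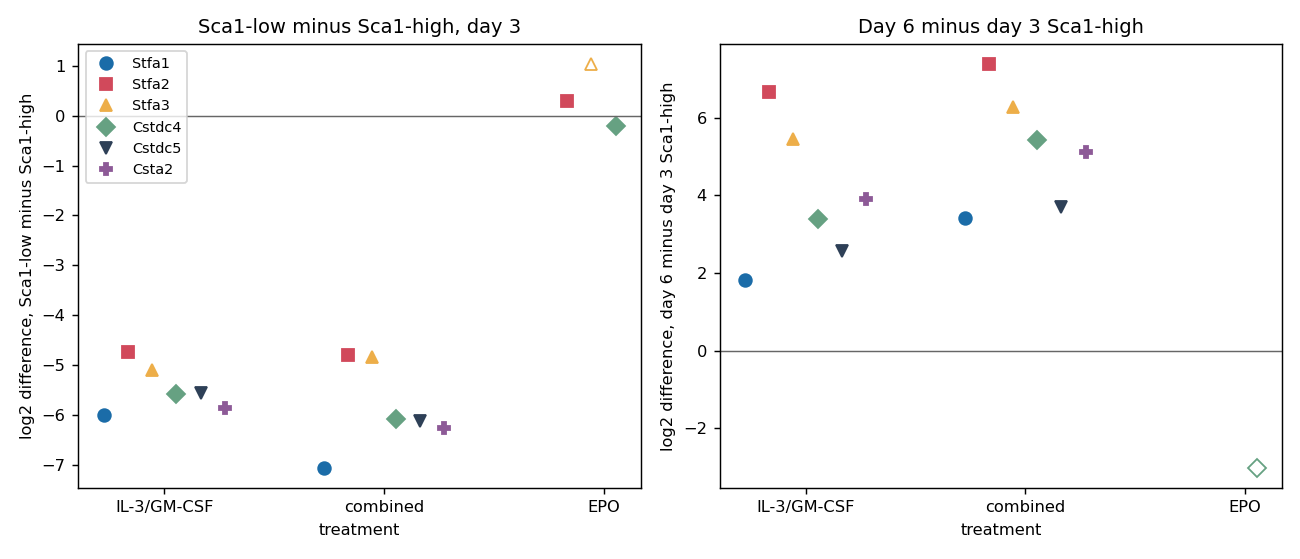
Log2 differences of the 6 stefin A genes within each treatment. The left panel shows Sca1-low minus Sca1-high cells at day 3 and the right panel day 6 minus day 3 Sca1-high cells, with filled symbols where both arrays were well above background and open symbols for bounds where 1 was not. Genes without a bound are not drawn. The left panel has all 6 genes between -7.06 and -4.74 with IL-3/GM-CSF and with both sets of factors, and the right panel shows Stfa1 with the smallest and Stfa2 with the widest step in both.

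Neighbours in the row of genes were read by their own probes. Stfa2l1, a further stefin A copy, read 151, 8057 and 261769.8 in Sca1-low cells, Sca1-high cells and at day 6 with IL-3/GM-CSF and was not well above background with EPO or in untreated cells. At day 6 it was at least 4588-fold higher with IL-3/GM-CSF than with EPO. Csta3 was at least 1985-fold and Cstdc6 at least 181-fold higher in the same comparison. Csta1, at the Stfa2l1 end of the row, was not well above background on any array. Nor were Casr, which encodes the calcium-sensing receptor, and Ildr1 beyond the Stfa3 end, and Cd86, which encodes a co-stimulatory protein of antigen-presenting cells, was so on 3 arrays but on neither IL-3/GM-CSF day 6 nor EPO day 6. The copies are close in sequence, and what share of a probe's signal comes from a neighbouring copy was not tested, so each stefin A value is uncertain in that respect. Csta1 was dim on all arrays and Cstdc4 was well above background with EPO at day 3, and neither value measures that share.

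**Figure D4:**
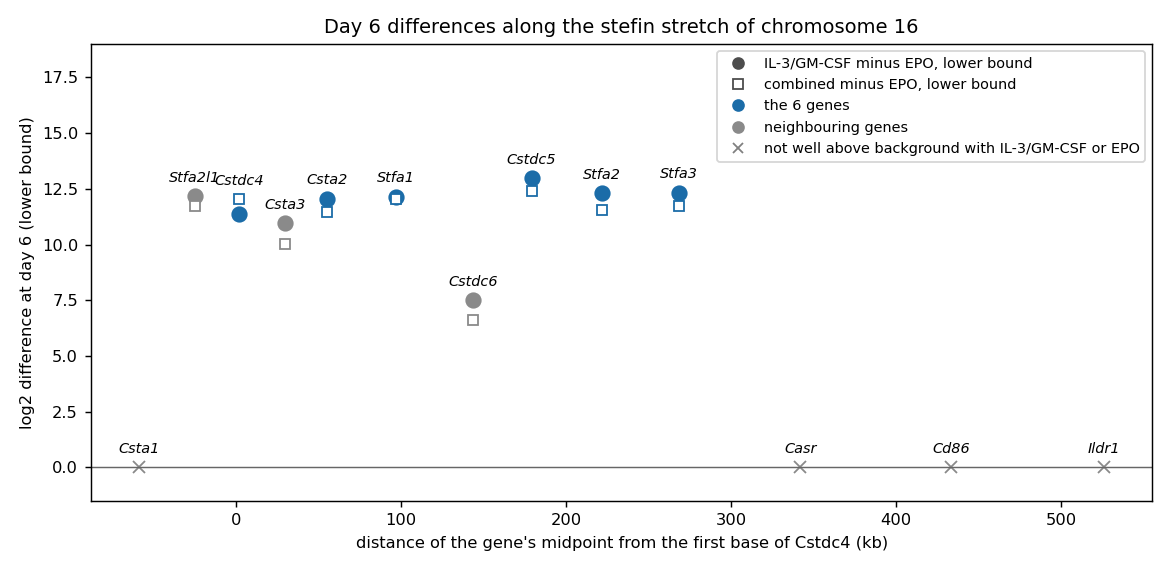
Lower bounds of the log2 difference at day 6 for IL-3/GM-CSF minus EPO (filled circles) and combined minus EPO (open squares), by distance of each gene's midpoint from the first base of Cstdc4 in kb. Blue marks the 6 stefin A genes and grey their neighbours with a probe, and crosses at 0 mark genes that were not well above background with IL-3/GM-CSF or EPO. Bounds of the 6 genes lie between 11.36 and 12.97 for IL-3/GM-CSF, and the flanking Csta1, Casr, Cd86 and Ildr1 have none.

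Over the 10 arrays, with levels floored at the array limit, Pearson's r between pairs of the 6 genes lay between 0.920 and 0.998 over 15 pairs. The highest was for Stfa1 and Cstdc5. These correlations describe 10 arrays that share treatments and slides, with dim values set at the floor. The genes were chosen for a difference between IL-3/GM-CSF and EPO on these arrays, so nothing is read from the size of r. Among 13586 other genes that passed the background call on at least 3 arrays, the 8 whose levels were most like the mean of the 6 were Stfa2l1 (r = 0.994), S100a8 (0.994), Bcl2a1d (0.992), Inpp5j (0.991), S100a9 (0.990), Prtn3 (0.988), Chst12 (0.984) and Ltb4r1 (0.983). S100a8 and S100a9 encode the subunits of calprotectin, an abundant neutrophil protein, and Prtn3 encodes a neutrophil granule protease. Bcl2a1d belongs to the survival proteins of the BCL2 family, and Ltb4r1 encodes a leukotriene B4 receptor.

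Other members of the cystatin family were read on the same arrays. In IL-3/GM-CSF against EPO cells at day 6, 11 of the 17 cystatin family genes tested were higher (all genes 14.0%). Of these 11, 6 are the genes described here, which were chosen on this contrast, so nothing is read from the count. The neighbours Stfa2l1, Csta3 and Cstdc6 make up 3 more. The remaining pair were Cst3, the secreted cystatin C, with levels of 6.16 and 4.68 and a difference of 1.48, and Cst7, cystatin F of leukocytes, with 5.29 and 2.94 and a difference of 2.35. Cstb, which encodes stefin B, the other intracellular stefin, had levels of 4.58 with IL-3/GM-CSF and 4.48 with EPO at day 6, and lay between 3.83 and 4.82 on all 10 arrays. Cst6, Cst8, Cst11 and Cst13 were not well above background on either array, and Hrg did not reach 2-fold as a bound.

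Of the cysteine cathepsins, the kind of protease that stefins inhibit, together with legumain (Lgmn), which was listed with them, 9 genes were tested. At day 6, 2 were higher and 1 was lower in IL-3/GM-CSF than in EPO cells. Over all genes, 14.0% were higher and 16.1% lower. Ctsc, which encodes the cathepsin that activates granule serine proteases, had levels of 3.90 and 2.89. Ctss was at least 2.74-fold higher and Ctsf fell by 1.39 on the log2 scale. Ctsb (4.94 and 5.69), Ctsl (0.50 and 1.30), Lgmn (0.79 and 1.61) and Ctsz (3.98 and 3.94) each differed by less than 2-fold, and Ctso and Ctsw did not reach 2-fold as bounds. Their median difference was 0.036, beside -0.22 over all genes. Among 11 inhibitors of serine proteases, 6 were higher (all genes 14.0%) and 3 lower (16.1%). Slpi, at least 455-fold higher, Wfdc21, at least 200-fold higher, and Serpinb1a, with levels of 7.26 and 0.99, were among those higher, and Serpinb6b, with -0.67 and 4.29, among those lower.

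Markers of cell types were read on the same arrays. Of 25 neutrophil granule and late neutrophil genes tested, 23 were higher in IL-3/GM-CSF than in EPO cells at day 6 (all genes 14.0%). Of these 25, 0 were lower (all genes 16.1%), with a median difference of 7.32. Their mean level was -1.79, 1.29 and 4.79 in Sca1-low cells, Sca1-high cells and at day 6 with IL-3/GM-CSF, -2.34, 0.21 and 4.02 with the combined treatment, and -2.42, -1.81 and -2.45 with EPO, against -2.07 in untreated cells. All 25 were well above background at day 6 with IL-3/GM-CSF and combined, and 12 were so at day 6 with EPO. Among them S100a9 was at least 6851-fold, S100a8 at least 5919-fold, Cebpe, a transcription factor of granule genes, at least 3015-fold and Ngp, a granule protein, at least 791-fold higher. Of 13 erythroid markers 13 were lower (all genes 16.1%), and their mean level at day 6 was -2.35 with IL-3/GM-CSF and 0.33 combined, against 5.57 with EPO. Ermap, a red cell membrane protein, was at least 1704-fold lower with IL-3/GM-CSF than with EPO. Of 13 monocyte and macrophage markers 8 were higher (all genes 14.0%) and 2 lower (16.1%). Adgre1, Cd14 and Mpeg1 were at least 273-fold, 36.2-fold and 21.1-fold higher, and Marco was lower, with levels of -1.99 and 4.80. Of 12 mast cell and basophil markers 3 were higher and 1 lower, beside the same shares of all genes. In Sca1-high cells at day 3, 16 of the 25 neutrophil genes were higher and 1 lower with IL-3/GM-CSF than with EPO. Of the 12 mast cell and basophil markers 1 was higher and 10 were lower there, with a median difference of -2.79. Over all 14272 genes tested, 6.29% were higher and 824 genes were lower in that comparison. Of 6 keratinocyte markers tested 1 was higher (all genes 14.0%) and 1 lower (16.1%) at day 6. Their mean levels were -2.29 with IL-3/GM-CSF and -1.49 with EPO. The part of these markers' cell types in the stefin A values was not tested.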

How the data were processed

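Total RNA of 10 EML-C1 samples was labelled with Cy3 and hybridised to 1-colour Agilent arrays, per the labels' protocols. The deposited files hold scanner output of Agilent Feature Extraction 11.0.1.1, per the submitters' processing notes. The intensity used is the processed signal, which the software had background-corrected, per the file headers, and its call of whether a spot is well above background. The deposited series matrix held the same intensity values and served as an alternative.

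Spots flagged as outliers were left out, log2 levels were taken relative to the 75th percentile of the 55681 non-control probes, and repeat spots were averaged. RefSeq accessions named 27229 probes. A gene took its brightest probe, and the 14272 genes that passed the background call on 2 or more arrays by any of their probes entered the fit. A difference counted at 2-fold or more with the brightest probe well above background on the higher side. A bound sets the bright array against the higher of the dim array's limit and the dim probe. The sole test was limma 3.58.1 in R 4.3.3 on the 6 day 3 arrays with treatment as a block. It used Benjamini-Hochberg adjustment over all genes and was tried on simulated data. The simulation drew its noise from residual SDs below their median and gave equal changes in all treatments. It therefore does not cover genes as uneven between treatments as these 6. Each condition had 1 array, so no spread between cultures entered the p-values. Promoters are RefSeq windows of GRCm38.p6.

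The genes named are the 6 members, their chromosomal neighbours (5 to each side and all between), the 8 genes most alike over the arrays, and the cystatins and cathepsins tested. Genes with large day 6 differences were added from the serine protease inhibitor, neutrophil, monocyte and erythroid lists. From the mast cell and keratinocyte lists none was named on that ground. Kit, Gata2 and Ly6a were added after their values were seen. The members and lists were chosen with earlier results of these data known. Alternatives were other background corrections (normexp with an offset of 50 on median signals, as the mean signal was not used here), quantile normalization, another percentile, mean probes, kept flags, other filters, blocks and samples.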

Additional observations from a re-analysis of the deposited data

Results flagged for a closer look

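In Sca1-low minus Sca1-high cells at day 3, Stfa2 and Stfa3 had differences of the opposite sign with EPO from those with the other treatments. The log2 difference of Stfa2 was 0.30 with EPO, which is under 2-fold, beside -4.74 with IL-3/GM-CSF and -4.80 with the combined treatment. That of Stfa3 was 1.04 with EPO, where the Sca1-high array was not well above background, beside -5.10 with IL-3/GM-CSF and -4.85 with the combined treatment. The 2-fold call of Stfa3 with EPO was lost with normexp and quantile normalization, with quantile normalization alone and with the percentile over detected probes. The difference between treatments was not tested. The EPO values of both genes lay near the array limits, at levels of -3.47 and -3.77 for Stfa2 and -3.54 and -4.58 for Stfa3 in Sca1-low and Sca1-high cells. In intensity units Stfa2 read 27.8 and 45.1 and Stfa3 26.6 and 25.8 on these arrays, whose 75th percentiles were 309 and 617.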

How the results depend on the processing

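No paired analysis was possible because every sample carries the replicate number 1, other than the fit blocked by treatment. Of 972 recomputed differences of the 6 genes under 6 alternatives, 0 changed sign among called values. On the log2 scale 622 moved by less than 0.1 and 350 by more. The series matrix and mean probes could not move them, since the values were the same and each gene had 1 probe. Kept flags could move Csta2 alone, so the 622 do not measure stability. The count of the 6 genes at least 2-fold apart changed by over 1.5 times in a few comparisons. For EPO Sca1-low minus untreated cells it was 1 in place of 2 with normexp and quantile normalization and with quantile normalization alone. For combined Sca1-low minus untreated cells it was 2 in place of 5 with normexp and quantile normalization. For EPO Sca1-low minus Sca1-high cells it was 0 in place of 1 with normexp and quantile normalization, with quantile normalization alone and with the percentile over detected probes. The cause was not tested. Of the 8 genes most like the 6, 2 were among the first 8 by Spearman's correlation. In the fit of day 3 arrays, 569 genes were higher in Sca1-low cells, against 314 with no filter, 1336 with genes well above background on all 10 arrays, a filter that leaves out all 6 stefin A genes, and 1019 with floored levels. Leaving out 1 treatment in turn gave 0 to 872 higher and 0 to 1379 lower genes and called 0 to 6 of the 6, with fewer arrays in each fit. All 10 arrays in an additive model gave 0 higher and 0 lower, with 3580 genes at an unadjusted limma p under 0.05. Over all genes, a count at 2-fold moved by over 1.5 times in 24 of 27 comparisons with normexp and quantile normalization and in 5 with the detected-probe percentile. The share of higher calls moved by over 10 points in 10 comparisons with normexp and quantile normalization, 6 with quantile normalization alone and 13 with the detected-probe percentile. In combined minus IL-3/GM-CSF Sca1-high cells, 566 higher and 652 lower genes became 858 and 406 with the detected-probe percentile and 295 and 289 with normexp and quantile normalization. In combined Sca1-low minus Sca1-high cells, 1622 and 1516 became 930 and 1932 and, with normexp and quantile normalization, 787 and 1399. The median of all genes shifted by up to 0.27 between scalings. Signals near background limit the EPO and untreated values to bounds.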
